A study of Mus musculus with 12 samples.

Results

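The genes followed were 10 of the 55401 genes in the deposited table, picked by name as the AP-1 and immediate early factors: Fos, Fosb, Fosl1, Fosl2, Jun, Junb, Jund, Atf3, Egr1 and Egr2. All 10 were among the 12016 genes that reached 1 FPKM (fragments scaled to transcript length and to library size) in at least 3 libraries. They were read in 12 poly(A) RNA-seq libraries of bone marrow mesenchymal stem cells (MSCs) of C57BL/6 mice, a commercial cell preparation, with 3 libraries in each of 4 groups. The groups were MSCs left untreated, MSCs given 5 ng/mL TGF-β1, MSCs given the same TGF-β1 with culture supernatant of monocytic myeloid-derived suppressor cells (TGF-β1/M-MDSC supernatant), and MSCs given it with supernatant of the granulocytic subset (TGF-β1/G-MDSC supernatant). The MDSCs had been grown from C57BL/6 bone marrow with GM-CSF and IL-6 and sorted before their supernatants were collected, and no library of MSCs given supernatant without TGF-β1, or unconditioned MDSC medium, was analysed here. The culture assays of myofibroblastic differentiation in the same study lasted 24 h. The time at which RNA was taken for sequencing is not given in the sources used here. Nothing says whether the 3 libraries of a group came from separate cultures, so the p-values measure only the spread between these libraries, which may be technical.

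AP-1 is a dimeric transcription factor in which a Jun protein pairs with another Jun, with a Fos protein or with a member of the ATF group, and the dimer binds short palindromic sites in enhancers and promoters. Fos, Fosb, Jun, Junb, Atf3, Egr1 and Egr2 are classical immediate early genes: serum, growth factors and stress induce them within minutes through MAP kinases and serum response factor, and their RNAs are short-lived. Fosl1 and Fosl2 (Fra-1 and Fra-2) follow later and stay longer, and Jund is made steadily. Egr1 and Egr2 are zinc finger factors of another family. In mesenchymal cells TGF-β acts through Smad proteins, which bind DNA together with AP-1 at many genes of the programme of myofibroblasts, the contractile, matrix-producing cells.

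The labelled cell type was set against its markers. Of 8 MSC markers 7 passed the filter, and with TGF-β1 Itgb1, Pdgfrb and Cd44 rose and Ly6a, Pdgfra and Thy1 fell by the edgeR test described below for the members, 3 genes each way beside 16.1% of all genes higher and 17.9% lower. The other marker, Nt5e, passed the filter only through groups with TGF-β1, where it was high, and is not counted. Ly6a, which codes for the MSC antigen Sca-1, had a mean of 245 FPKM without treatment, 16.2 for TGF-β1 alone, 92.5 when M-MDSC and 67.0 when G-MDSC supernatant was added. The list had summed levels of 581 to 598 FPKM in untreated MSCs, 500.2 to 513 with TGF-β1, 555 to 586 with M-MDSC and 533 to 559 with G-MDSC supernatant added, while neither Kit nor Pecam1 passed. Ptprc, Itgam and Adgre1, which define leukocytes and myeloid cells, had no counts in the untreated libraries and at most 0.0927 FPKM in any library. Ly6g and Ly6c2, whose antigens define the MDSC subsets, stood at 1.74 to 1.89 and 1.59 to 1.83 FPKM in untreated MSCs and at most at 0.0930 and 0.0830 FPKM with TGF-β1, and passed the filter only through the untreated libraries. The summed level of the 13 myeloid markers, 6 of which passed, was 28.9 to 30.8 FPKM in untreated MSCs, 15.7 to 17.2 with TGF-β1, 23.0 to 28.9 with M-MDSC supernatant added and 29.4 to 31.0 with G-MDSC supernatant added, mostly from Cd14. Against TGF-β1, Cd14 rose with either supernatant, from a mean of 13.8 to 20.4 and 22.6 FPKM, next to 23.0 FPKM in untreated MSCs. Ly6g, Ly6c2, Csf1r and Cd68 did not pass the test with either supernatant. Lyz2, the lysozyme gene of myeloid cells, had a mean of 0.0573 FPKM with TGF-β1, 1.54 with M-MDSC and 1.87 with G-MDSC supernatant added, and passed the filter only through these supernatant libraries, so its difference is given without a test. S100a9, a neutrophil and monocyte gene below the filter, had no counts without supernatant and 0.258 to 0.980 FPKM with M-MDSC supernatant. With G-MDSC supernatant it ran from no counts in the lowest library to 3.40 FPKM in the highest (mean 1.13, SD 1.96). The part of these markers in the changes of Egr2 and Fosl1 with supernatant was not tested. No endothelial marker of 3 and no epithelial marker of 4 passed. Libraries held 73977669 to 84565450 counts over all genes, and a member held 153 to 35577 counts in a library. In bulk RNA, fewer cells of a type and less RNA per cell cannot be told apart.

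Since members of the same family moved in opposite directions, their promoters were searched for short motifs. The 250 bases before the annotated start are shown for the 4 members whose window held TGACG, and for Egr2, the only member called with both supernatants. They come from RefSeq (GRCm38.p6), whose promoter table held 8 of the 10 members, without Fosl1 and Egr1. Capitals mark TGACG, read on either strand, which is part of the cAMP response element TGACGTCA, and TATAAA, read on the gene's strand only.
Fos, chr12:85473640-85473889, plus strand: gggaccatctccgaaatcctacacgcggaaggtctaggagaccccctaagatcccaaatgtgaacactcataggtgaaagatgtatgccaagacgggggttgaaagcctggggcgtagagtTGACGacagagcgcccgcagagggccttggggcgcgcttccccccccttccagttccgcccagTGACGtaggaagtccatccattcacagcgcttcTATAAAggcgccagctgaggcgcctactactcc
Fosb, chr7:19310046-19310295, minus strand: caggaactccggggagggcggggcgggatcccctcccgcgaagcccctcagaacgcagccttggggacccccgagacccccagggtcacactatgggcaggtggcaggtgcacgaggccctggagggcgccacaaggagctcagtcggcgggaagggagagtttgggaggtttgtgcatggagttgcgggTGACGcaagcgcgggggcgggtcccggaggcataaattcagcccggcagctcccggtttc
Junb, chr8:84978749-84978998, minus strand: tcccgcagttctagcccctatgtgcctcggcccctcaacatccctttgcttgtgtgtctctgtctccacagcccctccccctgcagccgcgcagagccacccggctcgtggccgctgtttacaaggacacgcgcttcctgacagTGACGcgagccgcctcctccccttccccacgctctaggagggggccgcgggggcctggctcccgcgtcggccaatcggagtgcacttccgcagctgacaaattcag
Atf3, chr1:191183334-191183583, minus strand: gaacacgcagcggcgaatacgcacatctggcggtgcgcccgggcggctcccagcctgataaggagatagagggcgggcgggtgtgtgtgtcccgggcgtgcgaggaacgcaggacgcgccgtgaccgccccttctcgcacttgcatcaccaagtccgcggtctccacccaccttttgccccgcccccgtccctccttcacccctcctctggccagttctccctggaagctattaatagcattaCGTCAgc
Egr2, chr10:67535249-67535498, plus strand: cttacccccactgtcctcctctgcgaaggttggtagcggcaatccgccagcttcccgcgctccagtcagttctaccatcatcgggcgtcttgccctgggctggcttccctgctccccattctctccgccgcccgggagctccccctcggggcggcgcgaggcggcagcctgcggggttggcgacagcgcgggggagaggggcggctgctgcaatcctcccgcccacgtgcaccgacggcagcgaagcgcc
TGACG stood in 4 of the 8 promoters, against 17.8% of all 32851 promoters of the table. It began at -129 and -66 from the start in Fos, at -60 in Fosb, at -106 in Junb and, on the other strand, at -7 in Atf3. TATAAA stood at -33 in Fos only, 1 of 8 members against 7.59% of all promoters. The AP-1 site TGACTCA (4.46% of all promoters), the whole element TGACGTCA (1.55%), the Egr site GCGTGGGCG (0.536%), the Smad palindrome GTCTAGAC (0.167%) and the CArG box of serum response factor (1.47%) were searched on both strands and were in none of the 8 windows. Sites outside these 250 bases, or variants with other letters, were not searched. The window of Egr2 held none of the letters searched. The part of these motifs in the changes of the members was not tested. The RefSeq start behind the window lies 34706 bp from the deposited gene start for Atf3, 1210 bp for Jund and 671 bp for Fosl2, and at most 30 bp for the other 5. The window of Egr2 is the nearest of 5 starts in the table.

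The first comparison asked how TGF-β1 alone changed these factors. Egr2, Junb, Fosb and Atf3 rose, Fos, Fosl2, Egr1, Jun and Fosl1 fell, and Jund did not pass the test, which was the quasi-likelihood test of edgeR with Benjamini-Hochberg adjustment over all 12016 genes. That is 9 of 10 members at an adjusted p-value under 0.05, beside 34% of all genes tested. The members were chosen with earlier results of these data known, so these shares describe them and are no test of the set. Of the members 4 rose, beside 16.1% of all genes, and 5 fell, beside 17.9%. Fosb, which is in these counts and in that of the fold rule, passed the filter only through libraries with TGF-β1, where it was high. It was also called without that filter. The median absolute log2 fold change was 0.93 over the members and 0.20 over all genes. With a fold above 2 or below 0.5 and an unadjusted p under 0.05, a rule like that of the study, 5 members were called beside 6.74% of all genes. Both directions occurred within the Fos family, within the Jun family and within the Egr pair.

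Among the Fos family, Fos (ENSMUSG00000021250, chromosome 12, 85473890 to 85477273, plus strand) is the founding member and a strong activator as a dimer with Jun. Its level was 3.65, 3.82 and 4.47 FPKM in the 3 untreated libraries and 0.879, 1.06 and 0.719 FPKM with TGF-β1. The lowest untreated library lay far above the highest TGF-β1 library. The log2 fold change was -2.09 (SE 0.19, n = 3 against 3, edgeR adjusted p = 8.17e-06), the largest fall among the members, and Fos went from the percentile 35.6 of the tested genes by mean FPKM to 4.65.

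Fosb (ENSMUSG00000003545, chromosome 7, 19302696 to 19310051, minus strand) moved the other way. Its level was 0.870, 0.795 and 0.824 FPKM in untreated MSCs and 2.27, 2.16 and 1.94 FPKM with TGF-β1, without overlap. The log2 fold change was 1.41 (SE 0.091, edgeR adjusted p = 6.96e-07). Fosb passed the filter only through its 9 libraries with TGF-β1, and it was called without that filter as well. The gene makes a full-length protein and a truncated one (ΔFosB) by splicing, which these gene-level counts do not separate.

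Fosl2 (ENSMUSG00000029135, chromosome 5, 32135801 to 32157842, plus strand) codes for Fra-2. It stood at 43.0, 37.6 and 38.0 FPKM untreated and at 19.4, 17.2 and 19.1 FPKM with TGF-β1. All 3 TGF-β1 libraries were near the same low level, and the log2 fold change was -1.03 (SE 0.083, edgeR adjusted p = 3.89e-06).

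Fosl1 (ENSMUSG00000024912, chromosome 19, 5447547 to 5455946, plus strand) codes for Fra-1, which like Fra-2 has no strong activation domain of its own. It stood at 33.3, 33.2 and 31.8 FPKM untreated and at 25.8, 26.9 and 27.5 FPKM with TGF-β1. The groups did not overlap, but the difference was small: the log2 fold change was -0.24 (SE 0.048, edgeR adjusted p = 0.00289). Fosl1 shares 2767 bp with Ccdc85b on the opposite strand, and the strand setting of the counting is not given. Ccdc85b, looked up after the overlap was seen, held 5812 to 7057 counts in 5 libraries and 1481 to 2067 in the other 7, while Fosl1 held 4703 to 6475 counts over all 12 libraries. Both levels of Ccdc85b occurred within each group except with M-MDSC supernatant, where every library was low (1481 to 1706 counts). The part of this overlap in the Fosl1 values was not tested.

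In the Jun family, Junb (ENSMUSG00000052837, chromosome 8, 84976910 to 84978718, minus strand), a weaker activator than Jun that can restrain it, stood at 38.3, 41.1 and 41.2 FPKM untreated and at 107, 110.2 and 114 FPKM with TGF-β1. Every TGF-β1 library exceeded every untreated one by a wide margin. The log2 fold change was 1.52 (SE 0.048, edgeR adjusted p = 3.65e-09), and Junb had the highest level of the 10 members with TGF-β1.

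Jun (ENSMUSG00000052684, chromosome 4, 95049034 to 95052222, minus strand), the activating partner of most Fos dimers, stood at 32.2, 34.4 and 34.7 FPKM untreated and at 23.0, 25.3 and 24.7 FPKM with TGF-β1. It fell modestly and without overlap, with a log2 fold change of -0.41 (SE 0.058, edgeR adjusted p = 0.000248). The antisense gene Junos, which shares 689 bp with Jun, held at most 145 counts in a library.

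Jund (ENSMUSG00000071076, chromosome 8, 70698949 to 70700616, plus strand), the constitutive member, stood at 34.0, 39.0 and 39.7 FPKM untreated and at 40.4, 43.3 and 40.1 FPKM with TGF-β1. The libraries of the 2 groups did not overlap by FPKM but nearly touched. The log2 fold change was 0.19, with a 95% interval from -0.0079 to 0.40 (edgeR adjusted p = 0.133), so Jund did not pass the test.

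Atf3 (ENSMUSG00000026628, chromosome 1, 191170296 to 191218039, minus strand), a stress-induced factor that can repress as a homodimer and also pairs with Jun proteins, stood at 3.07, 3.58 and 3.08 FPKM untreated and at 5.42, 6.08 and 5.09 FPKM with TGF-β1. The TGF-β1 libraries were all higher, with a log2 fold change of 0.83 (SE 0.11, edgeR adjusted p = 0.000194).

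The pair of Egr genes parted. Egr1 (ENSMUSG00000038418, chromosome 18, 34859823 to 34864984, plus strand) had the highest FPKM of the members in untreated MSCs, at 44.7, 47.7 and 48.0 FPKM, and stood at 25.9, 26.2 and 25.9 FPKM with TGF-β1. The 3 TGF-β1 libraries were almost identical, and the log2 fold change was -0.79 (SE 0.055, edgeR adjusted p = 1.24e-06). Egr2 (ENSMUSG00000037868, chromosome 10, 67535475 to 67542188, plus strand), known from hindbrain and Schwann cell development and from fibroblasts given TGF-β, stood at 2.03, 2.20 and 1.93 FPKM untreated and at 7.74, 9.64 and 8.03 FPKM with TGF-β1. Its log2 fold change of 2.10 (SE 0.10, edgeR adjusted p = 9.61e-08) was the largest rise among the members, and it went from the percentile 18.2 of the tested genes to 59.1.

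**Figure D1:**
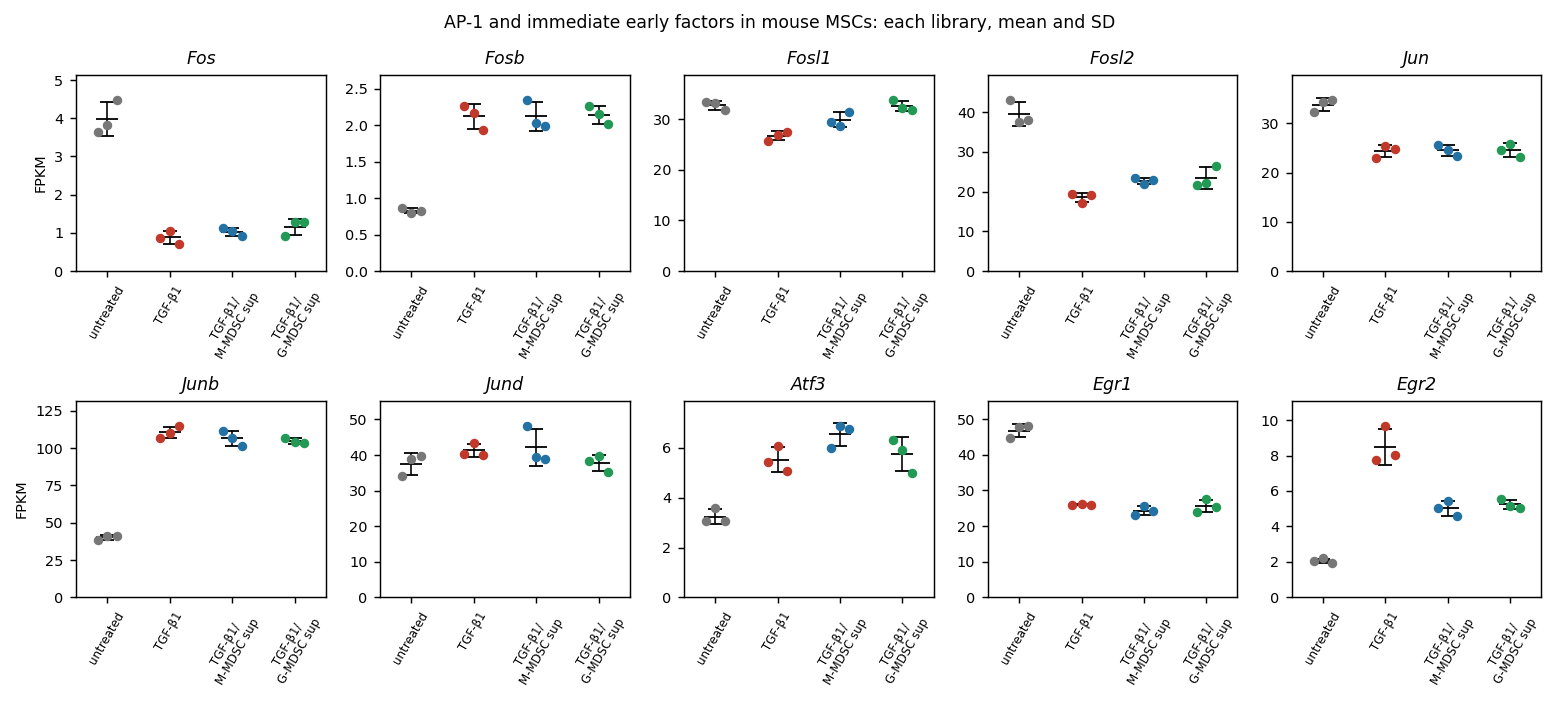
Level of each of the 10 factors in FPKM (vertical axes, linear from 0, scaled per gene) in the 4 groups, with a point for each library, the mean as a line and the SD as the error bar (n = 3). Junb, Fosb, Egr2 and Atf3 sit higher in all libraries with TGF-β1 and Fos, Fosl2, Jun and Egr1 lower, while the Egr2 points with either supernatant (4.58 to 5.52 FPKM) lie between the untreated (1.93 to 2.20) and the TGF-β1 points (7.74 to 9.64).

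The order of the levels changed with TGF-β1. The deposited FPKM divides by about the union of a gene's exons, so the order between genes depends in part on that length. For Junb the length follows its deposited span of 1809 bp, while its exons in the GENCODE annotation cover 2301 bp, so its FPKM is higher than that annotation would give. By FPKM, in untreated MSCs Egr1 led at 46.8 ± 1.85 FPKM (SD, n = 3), followed by Junb, Fosl2, Jund, Jun and Fosl1 between 40.2 ± 1.66 and 32.8 ± 0.894 FPKM, whose neighbours in the order overlapped between libraries. Fos, Atf3, Egr2 and Fosb followed far below, from 3.98 ± 0.436 to 0.830 ± 0.0379 FPKM. With TGF-β1 the order was Junb (110.4 ± 3.88 FPKM), Jund, Fosl1, Egr1, Jun, Fosl2, Egr2, Atf3, Fosb and Fos (0.887 ± 0.171 FPKM), and only Fosl1 and Egr1 overlapped among neighbours. With the longest coding transcript as the length, Fosl2 led in untreated MSCs at 65.3 ± 5.02 fragments on the same scale as FPKM, against 52.2 ± 2.05 for Egr1, and by counts scaled to library size alone Fosl2 also led. Junb led with TGF-β1, and Fosb and Fos stood in the opposite order without and with TGF-β1, on all 3 scales.

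The share of each paralog in its family was computed from the same FPKM values. Junb made up 36.1% ± 0.524 (SD, n = 3) of the FPKM of the Jun family in untreated MSCs and 62.7% ± 1.11 with TGF-β1, while Jun went from 30.3% to 13.8% and Jund from 33.7% to 23.4%. The summed level of the Jun family was 111 ± 6.14 FPKM untreated and 176 ± 5.18 FPKM with TGF-β1, so the larger sum came with more Junb. The summed level of the Fos family was 77.1 ± 3.27 FPKM untreated and 48.3 ± 0.950 FPKM with TGF-β1. Within it Fosl2 went from 51.2% to 38.4% and Fosl1 from 42.5% to 55.3%, Fos from 5.18% to 1.84% and Fosb from 1.08% to 4.39%. For each of these 9 quantities the groups did not overlap and the two-sided exact permutation test gave p = 0.1, which is as low as this test can go for groups of 3 (adjusted p = 0.24 over 36 such comparisons). The direction of each share held with counts scaled to library size alone. With the longest coding transcript as the length the Fos-family directions held, and the Jun-family shares stayed at the same values, since the lengths behind the FPKM are in proportion to these transcripts. The rank of Fosl1 and Fosl2 with TGF-β1 did not hold by counts scaled to library size alone, which ignore length: there Fosl2 was 72.0% of the family. With the longest coding transcript as the length Fosl1 stayed ahead, at 47.7% against 45.0% for Fosl2.

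**Figure D2:**
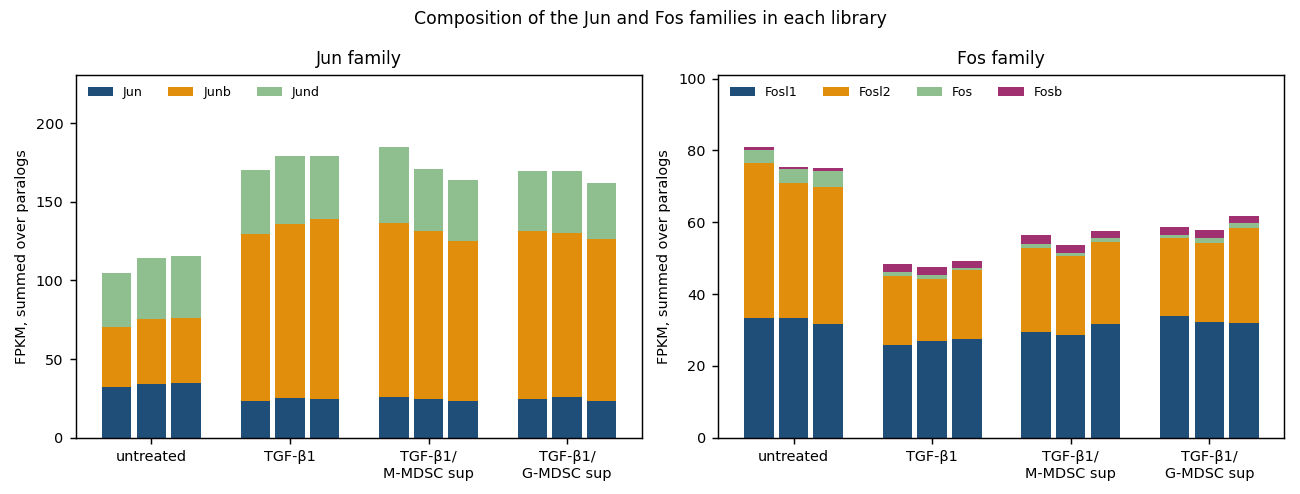
Stacked bars of FPKM summed over the paralogs of the Jun family (left) and of the Fos family (right), 1 bar for each of the 12 libraries, with a colour for each gene and the vertical axis from 0. The Junb segment fills 61.6% to 63.8% of the Jun-family bars with TGF-β1 and 35.6% to 36.6% of the untreated ones, and the Fos-family bars are shorter with TGF-β1 (47.4 to 49.3 FPKM) than untreated (75.0 to 80.9 FPKM).

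The next question was what MDSC supernatant changed in MSCs given TGF-β1. Each supernatant group was set against the same 3 TGF-β1 libraries, so these comparisons share their controls with each other and with the comparison against untreated MSCs. With M-MDSC supernatant 1 member of 10 fell, Egr2, and no member rose, beside 4.78% of all genes called in either direction and 1.95% called lower. With G-MDSC supernatant Egr2 fell and Fosl1 rose, 2 members of 10, beside 5.56% of all genes called in either direction, 3.1% higher and 2.46% lower. By the rule of a fold above 2 or below 0.5, no member was called with either supernatant, beside 2.18% of genes with M-MDSC and 2.17% with G-MDSC supernatant. The median absolute log2 fold change of the members was 0.13 in either comparison, against 0.10 over all genes for the M-MDSC group and 0.097 for the G-MDSC group.

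Egr2 stood at 5.03, 5.45 and 4.58 FPKM with TGF-β1/M-MDSC supernatant and at 5.52, 5.15 and 5.05 FPKM with TGF-β1/G-MDSC supernatant. All 6 libraries lay below the lowest TGF-β1 library at 7.74 FPKM and above the highest untreated library at 2.20 FPKM. Against TGF-β1 the log2 fold change was -0.78 with M-MDSC supernatant (SE 0.10, edgeR adjusted p = 0.000948) and -0.72 with G-MDSC supernatant (SE 0.10, adjusted p = 0.0016). Against untreated MSCs Egr2 was still higher, by a log2 fold change of 1.32 (edgeR adjusted p = 2.84e-06) with M-MDSC and 1.38 (adjusted p = 2.16e-06) with G-MDSC supernatant.

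Fosl1 stood at 33.8, 32.2 and 31.9 FPKM with TGF-β1/G-MDSC supernatant, all above the TGF-β1 libraries (25.8 to 27.5 FPKM), and overlapped the untreated libraries (31.8 to 33.3 FPKM). Set against TGF-β1, Fosl1 had a log2 fold change of 0.26 (SE 0.048, edgeR adjusted p = 0.00843). With TGF-β1/M-MDSC supernatant Fosl1 stood at 29.5, 28.7 and 31.5 FPKM, also without overlap with TGF-β1, but the log2 fold change of 0.14 did not pass the test (edgeR adjusted p = 0.161). Cd14, from the myeloid list, also rose with either supernatant, towards its mean of 23.0 FPKM in untreated MSCs. Whether this bears on Fosl1 was not tested.

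Fosl2 stood at 23.3, 21.8 and 23.0 FPKM with M-MDSC supernatant and at 21.7, 22.1 and 26.5 FPKM with G-MDSC supernatant, each above the highest TGF-β1 library (19.4 FPKM). Its log2 fold changes against TGF-β1 were 0.27 (95% interval 0.085 to 0.45, edgeR adjusted p = 0.117) and 0.31 (0.13 to 0.49, adjusted p = 0.0583), neither past the threshold. The M-MDSC value passed under DESeq2 alone (adjusted p = 0.0307), and the G-MDSC value under DESeq2 (adjusted p = 0.00719) and, just below the threshold, in 4 other settings (Fosl2 adjusted p = 0.0430 to 0.0496). The summed level of the Fos family was 55.8 ± 2.01 FPKM with M-MDSC and 59.4 ± 2.07 FPKM with G-MDSC supernatant, against 48.3 ± 0.950 FPKM with TGF-β1, without overlap in either case (exact permutation p = 0.1, the smallest possible).

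The other 7 members did not pass the test with either supernatant. Fos stood at 1.13, 1.04 and 0.913 FPKM with M-MDSC and at 0.910, 1.28 and 1.28 FPKM with G-MDSC supernatant, overlapping the TGF-β1 libraries. Its 95% intervals of the log2 fold change, from -0.22 to 0.59 and from -0.054 to 0.75, were the widest among the members. Junb stood at 101 to 111 FPKM over the 6 supernatant libraries, with intervals from -0.18 to 0.028 for M-MDSC and from -0.21 to 0.0014 for G-MDSC supernatant. Its share of the Jun family was 61.5% and 62.7%, next to 62.7% with TGF-β1. Jun (23.1 to 25.8 FPKM), Fosb (1.99 to 2.34 FPKM) and Jund (35.3 to 48.0 FPKM) overlapped the TGF-β1 libraries or, for Jund with G-MDSC supernatant, lay just below them, with a log2 fold change of -0.15 (edgeR adjusted p = 0.457). Atf3 stood at 6.02, 6.86 and 6.76 FPKM with M-MDSC and at 6.33, 5.92 and 4.99 FPKM with G-MDSC supernatant, against 5.09 to 6.08 FPKM with TGF-β1. Egr1 stood at 23.2 to 25.6 FPKM with M-MDSC supernatant, below the 3 TGF-β1 libraries, with a log2 fold change of -0.12 (95% interval -0.24 to 0.0045, edgeR adjusted p = 0.319), and at 24.1 to 27.5 FPKM with G-MDSC supernatant, around them.

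**Figure D3:**
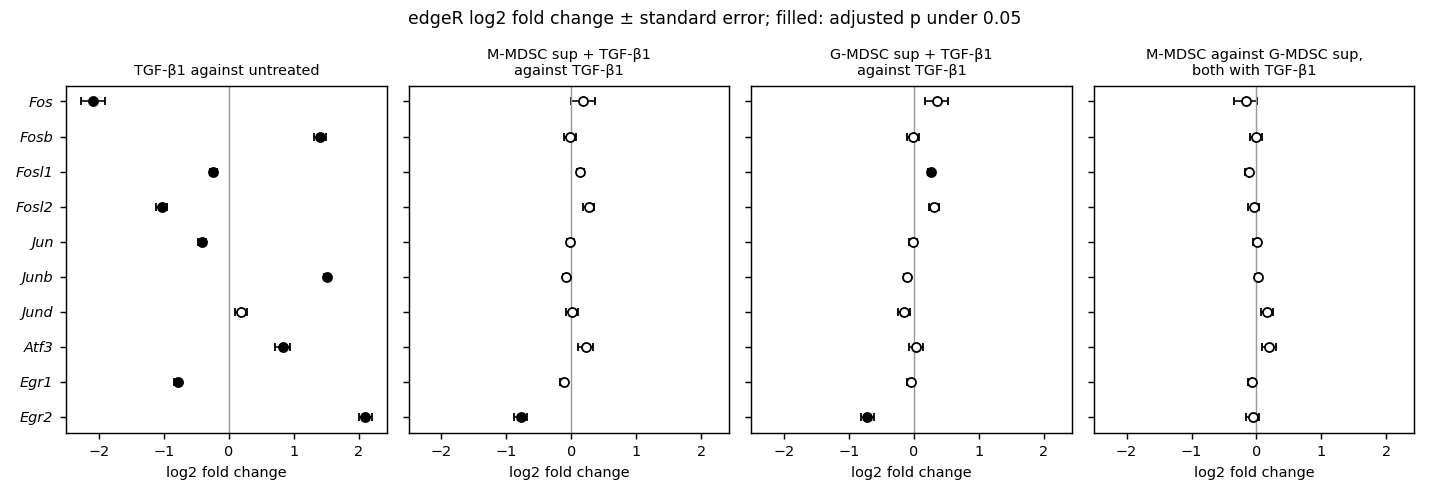
edgeR log2 fold change (horizontal axes) of each factor in 4 comparisons, with the SE as the error bar and filled points for an adjusted p-value under 0.05. With TGF-β1 against untreated MSCs 9 points are filled, from -2.09 for Fos to 2.10 for Egr2, while with supernatant only Egr2 (-0.78 and -0.72) and, for G-MDSC supernatant, Fosl1 (0.26) are filled, and none in the comparison of the supernatants.

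The supernatants were then compared with each other in the presence of TGF-β1. No member of 10 passed the edgeR test, beside 0.125% of all genes, and the fold rule called none either, beside 0.549%. DESeq2 and limma called none, and 1 member of 10 had an unadjusted p under 0.05 in edgeR, beside 6.33% of all genes. That member was Fosl1, with a log2 fold change of -0.12 for M-MDSC against G-MDSC supernatant (adjusted p = 0.732). For Egr2 the log2 difference was -0.06, with a 95% interval from -0.28 to 0.16. Atf3, with the mean of 6.55 ± 0.462 FPKM for M-MDSC and 5.75 ± 0.689 FPKM for G-MDSC supernatant, had an interval from -0.055 to 0.44.

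Against untreated MSCs, the members were also read in the groups given TGF-β1 together with a supernatant. With M-MDSC supernatant 8 of 10 members were called, beside 35.2% of all genes, and with G-MDSC supernatant 8 of 10, beside 34.8%. The fold rule called 5 members beside 6.98% of genes and 4 members beside 6.8%. In each comparison Junb, Fosb, Egr2 and Atf3 were higher and Fos, Egr1, Fosl2 and Jun lower than in untreated MSCs. Fosb is in these counts, though it passed the filter only through libraries with TGF-β1. Junb differed by a log2 fold change of 1.44 with M-MDSC and 1.41 with G-MDSC supernatant, Fos by -1.91 and -1.74, and Fosl2 by -0.76 and -0.72. Fosl1 and Jund were not called: the 95% interval for Fosl1 was -0.20 to 0.0082 with M-MDSC supernatant and -0.082 to 0.13 with G-MDSC supernatant.

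Other genes of the same pathways were taken from lists chosen by function, with earlier results of these data known. Among 17 other immediate early genes 15 passed the filter, and with TGF-β1 6 rose and 4 fell, beside 16.1% and 17.9% of all genes tested. Gadd45b, a stress-response gene that TGF-β is known to induce, rose from 23.6 ± 1.34 to 55.0 ± 2.55 FPKM (log2 fold change 1.28, edgeR adjusted p = 3.57e-08). Nr4a1, an orphan nuclear receptor, fell from 45.8 ± 3.16 to 17.9 ± 0.955 FPKM (-1.30, adjusted p = 1.57e-06), and Dusp1, a phosphatase that switches off MAP kinases, fell from 27.0 ± 1.65 to 16.4 ± 0.731 FPKM (-0.66). As with the members, genes of this list moved in both directions. With M-MDSC supernatant Egr3, a paralog of Egr2, fell from 5.87 ± 0.400 to 4.45 ± 0.554 FPKM (-0.42, adjusted p = 0.0324), and it stood at 5.03 ± 0.145 FPKM with G-MDSC supernatant (-0.25, adjusted p = 0.21). Ccn1, a matricellular protein gene, fell with either supernatant, by 0.24 on the log2 scale with M-MDSC (adjusted p = 0.0109) and by 0.33 with G-MDSC supernatant (adjusted p = 0.00124), and Ier3 rose with G-MDSC supernatant (0.47, adjusted p = 0.00168).

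Of 11 other AP-1 partners 7 passed the filter. With TGF-β1 Jdp2, Mafk and Mafg rose and Maf and Maff fell, 3 and 2 genes beside 16.1% and 17.9% of all genes. Maf, a large factor of the Maf family, went from 4.60 ± 0.569 to 1.50 ± 0.190 FPKM (log2 fold change -1.56, edgeR adjusted p = 1.65e-06), and Jdp2, a repressor that pairs with Jun, from 10.5 ± 0.491 to 16.1 ± 0.0355 FPKM (0.67, adjusted p = 4.34e-05). Jdp2 fell with G-MDSC supernatant added (-0.31, adjusted p = 0.0365), the only call of this list with a supernatant against TGF-β1.

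All 8 regulators around serum response factor and the NAB corepressors passed the filter. With TGF-β1 Mrtfa, Srf, Elk3 and Elk1 rose and Nab2 fell, 4 and 1 genes beside the same shares of all genes, and none was called with a supernatant against TGF-β1. Nab2, which binds Egr proteins and holds them back, went from 61.6 ± 1.02 to 31.9 ± 1.11 FPKM (log2 fold change -0.89, edgeR adjusted p = 1.36e-06). Srf itself went from 38.6 ± 3.17 to 48.2 ± 1.96 FPKM (0.38, adjusted p = 0.000549).

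Among 12 kinases upstream of AP-1, all of which passed the filter, Rps6ka2 and Map2k1 rose and Mapk3 fell with TGF-β1, 2 and 1 genes beside the same shares of all genes. Map2k1, which codes for the Erk kinase MEK1, was the only one of the 12 called with a supernatant against TGF-β1, beside 4.78% of all genes with M-MDSC and 5.56% with G-MDSC supernatant. It stood at 24.8 ± 1.09 FPKM untreated, 31.8 ± 1.12 with TGF-β1, 43.9 ± 0.903 with M-MDSC and 41.9 ± 1.59 with G-MDSC supernatant added. It rose against TGF-β1 by a log2 fold change of 0.44 (edgeR adjusted p = 0.000216) with M-MDSC and 0.37 (adjusted p = 0.000809) with G-MDSC supernatant. Mapk3, which codes for Erk1, went from 45.6 ± 1.67 FPKM untreated to 29.7 ± 1.87 with TGF-β1 (-0.56, adjusted p = 1.01e-05).

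Of 15 genes known as AP-1 targets 12 passed the filter, and with TGF-β1 8 rose and 3 fell, beside 16.1% and 17.9% of all genes. Among the 8, Mmp9 was at most 0.321 FPKM in untreated MSCs and passed the filter only through libraries with TGF-β1, so its rise with TGF-β1 followed in part from the filter. Hbegf, a growth factor of the EGF family, rose from 25.2 ± 0.737 to 64.1 ± 2.83 FPKM (log2 fold change 1.41, edgeR adjusted p = 3.92e-09) and Plau, the urokinase gene, fell from 67.4 ± 3.17 to 24.1 ± 0.644 FPKM (-1.43, adjusted p = 2.04e-08). Hbegf was the only target that fell against TGF-β1 with either supernatant, at 52.6 ± 1.92 FPKM with M-MDSC (-0.31, adjusted p = 0.00203) and 50.4 ± 1.20 FPKM with G-MDSC supernatant (-0.37, adjusted p = 0.000524). With G-MDSC supernatant 5 targets rose, beside 3.1% of all genes: Mmp9, Il6, Timp1, Ptgs2 and Spp1. Il6 went from 1.41 ± 0.260 FPKM with TGF-β1 to 2.64 ± 0.0757 (0.88, adjusted p = 0.00483), next to 2.09 ± 0.213 FPKM with M-MDSC supernatant (0.55, adjusted p = 0.0683). Neither Il6 nor any other gene of these lists was called between the supernatants, so no difference between the supernatants was shown for them.

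**Figure D4:**
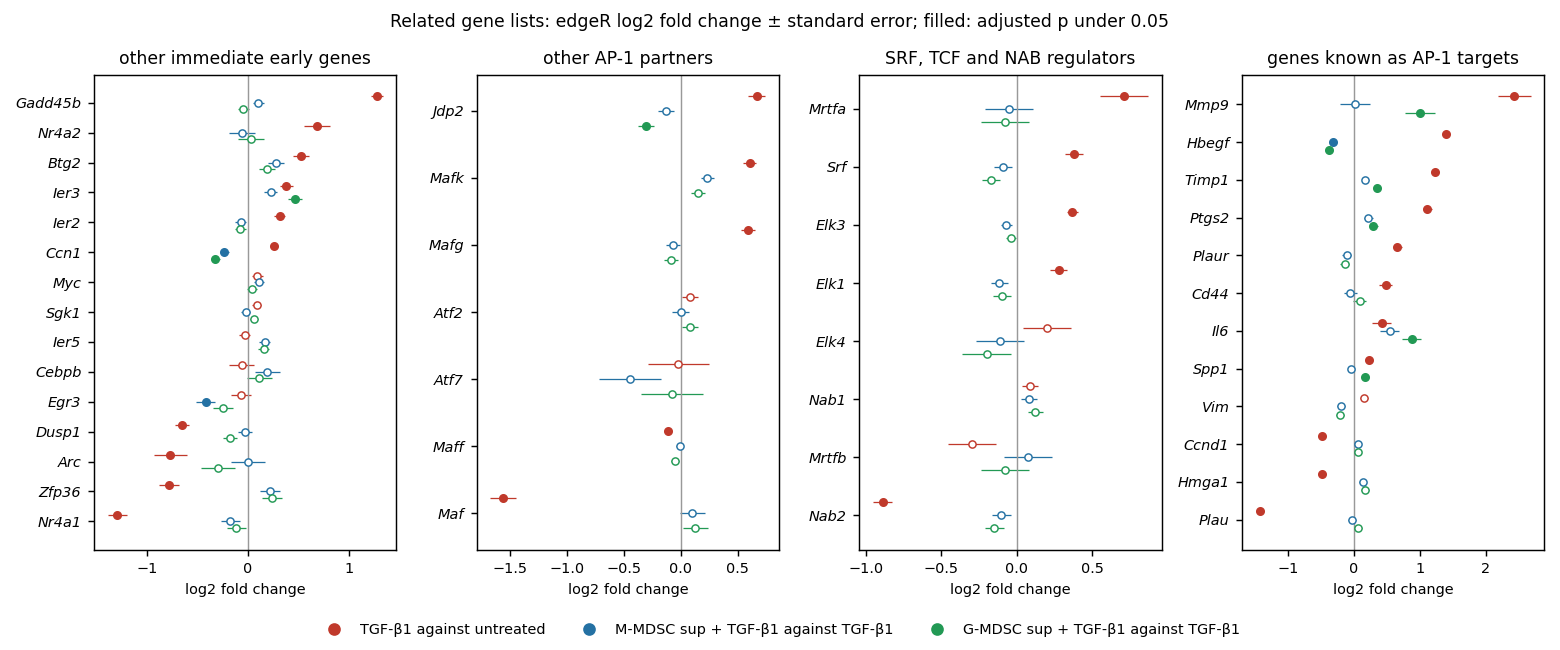
edgeR log2 fold change (horizontal axes) with the SE as the bar for the other immediate early genes, the other AP-1 partners, the SRF, TCF and NAB regulators and the AP-1 targets (the kinases, with Map2k1, are not drawn), with red for TGF-β1 against untreated MSCs, blue and green for M-MDSC and G-MDSC supernatant with TGF-β1 against TGF-β1, and filled points for an adjusted p-value under 0.05. Most filled points are red and lie on either side of 0, from -1.56 for Maf to 1.41 for Hbegf, with Mmp9 beyond at 2.43, which passed the filter only through libraries with TGF-β1, and the filled blue points among these 4 lists are Egr3, Ccn1 and Hbegf.

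Heat shock genes, which handling of cells can induce together with immediate early genes, also moved with TGF-β1. Of 8 genes 7 passed the filter, 1 rose (Dnajb1) and 6 fell, beside 16.1% and 17.9% of all genes, among them Hspa1b from 20.6 ± 0.844 to 9.81 ± 0.555 FPKM (log2 fold change -1.02, edgeR adjusted p = 1.91e-05). The summed level of the list was 794 to 803 FPKM in untreated MSCs, 630 to 669 with TGF-β1, 700 to 709 with M-MDSC and 673 to 741 with G-MDSC supernatant added. The part of handling in the falls of Fos, Jun and Egr1 was not tested.

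The genes whose levels ran most like those of 3 members over the 12 libraries were looked up by Pearson's r on log2(FPKM + 1), as a description, since the libraries share their groups. Nearest to Egr2 were Klf13 and Hs6st1, each at r = 0.988. Klf13, a zinc finger factor, stood at 2.50, 4.61, 3.73 and 3.70 mean FPKM in the untreated, TGF-β1, M-MDSC and G-MDSC groups. Nearest to Junb were Pdgfc (r = 0.999), which codes for a platelet-derived growth factor, and Anxa8 (r = 0.998), and nearest to Fos were Cd300lb and Wnk4 (each r = 0.988). Pdgfc stood at 5.76, 21.1, 19.8 and 19.2 mean FPKM in the same order of groups. These genes were picked for their likeness, so their group patterns follow from that choice.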

How the data were processed

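RNA labelled as from bone marrow MSCs was sequenced as 12 poly(A) paired-end libraries of 73977669 to 84565450 counts each. Per the submitters' processing notes and the study's methods, the authors trimmed reads (cutadapt 1.9, fastp), aligned them to GRCm38 with HISAT2 2.0.4 and assembled transcripts with StringTie 1.3.4d; edgeR and DESeq2 are also named. The authors deposited counts per gene and FPKM per gene. The counting tool and its strand setting are not given in the sources used here. A count of 0 has a deposited FPKM of 0.0001, and among nonzero counts no larger than 12, 44.3% had a value of 4, 8 or 12.

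Genes with 1 FPKM or more in at least 3 libraries were tested on the deposited counts with edgeR 4.0.16 (R 4.3.3; TMM scaling, quasi-likelihood F-test, 4 groups in 1 fit, no block), with Benjamini-Hochberg adjustment over 12016 genes and a threshold of 0.05. A 95% interval is the log2 fold change ± the t quantile times the SE. FPKM gave levels, shares within families and log2(FPKM + 1) profiles. Family shares were compared by the two-sided exact permutation test. Alternatives were other scalings (DESeq2's median of ratios within edgeR, none), other filters, DESeq2 1.42.0, limma 3.58.1 on log2 FPKM with pseudocounts 1 and 0.1, only the 2 groups compared, family shares by counts scaled to library size, a replicate block and leaving out each library. Chosen after seeing the data were counts divided by 4, shares and levels per longest coding transcript, and levels by counts scaled to library size. The fits were tested on simulated data.

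The members, the lists and the markers were chosen with earlier results of these data known. All 10 members are named, with genes of the lists that passed the test or are needed for a comparison, and for Egr2, Junb and Fos the 2 genes with the highest r over the 12 libraries among tested genes. Ddit3 had a symbol on more than 1 gene, and the one with most counts was used. Numbers shared by libraries of different groups did not pair them, as the closing part gives.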

Additional observations from a re-analysis of the deposited data

How the results depend on the processing

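The 28 called member values kept their direction and their call in all 448 refits, including those that left out 1 library. Of 512 refits of the 32 values not called, 9 became called, all of Fosl2 with a supernatant against TGF-β1 or Fosl1 with M-MDSC supernatant against untreated MSCs, and 42 changed sign, none above 0.0988 in size. With a fold above 2 or below 0.5 and unadjusted p under 0.05, 5 members were called for TGF-β1 against untreated, 0 for M-MDSC and 0 for G-MDSC supernatant against TGF-β1, and 5 and 4 for these against untreated. DESeq2 called 2 members for M-MDSC supernatant against TGF-β1, Egr2 and Fosl2, beside 6.91% of all genes, and 3 for G-MDSC supernatant, Egr2, Fosl1 and Fosl2, beside 8.24%. Leaving out each library changed no count of called members.

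Replicate numbers did not pair libraries: same-numbered libraries correlated at -0.00473 on average over 18 pairs (range -0.174 to 0.0831). With the replicate number as a block, the counts of called members were 9, 1, 2, 0, 8 and 8, for TGF-β1 against untreated, M-MDSC and G-MDSC supernatant against TGF-β1, M-MDSC against G-MDSC supernatant, and M-MDSC and G-MDSC supernatant against untreated, beside 32.7%, 3.84%, 4.74%, 0.0666%, 33.3% and 33.2% of all genes, and the block changed no call of a member.

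Signs changed without TMM, with limma at pseudocount 1 and with limma at 0.1, in that order, for Jun with M-MDSC supernatant against TGF-β1 (0.0082, 0.0077 and 0.008), Jun with G-MDSC supernatant (0.0099, 0.0078 and 0.008), Fosb with G-MDSC supernatant (0.0144, 0.0092 and 0.0134), Jun between the supernatants (-0.0017, -0.0001 and -0.0001) and Fosl1 with G-MDSC supernatant against untreated (-0.0091, -0.0069 and -0.0071). Fosb with M-MDSC supernatant was 0 without TMM. The Fos share with M-MDSC supernatant against TGF-β1 was -0.02876 percentage points by counts scaled to library size alone and -0.01118 with the longest coding transcript as the length. Which property of each setting moved these values was not tested.

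Leaving out 1 library gave these ranges of log2 fold change where a sign changed. Against TGF-β1 they were, with M-MDSC supernatant, -0.1019 to 0.0268 for Fosb, -0.0546 to 0.0181 for Jun and -0.0988 to 0.0629 for Jund, and with G-MDSC supernatant -0.057 to 0.0363 for Fosb, -0.0578 to 0.0226 for Jun and -0.0482 to 0.1197 for Atf3. Between the supernatants they were -0.1224 to 0.0046 for Egr2, -0.0886 to 0.0371 for Fosb, -0.0914 to 0.0577 for Fosl2, -0.0374 to 0.0408 for Jun and -0.0074 to 0.0618 for Junb, and with G-MDSC supernatant against untreated -0.0021 to 0.0458 for Fosl1 and -0.0289 to 0.0854 for Jund. For family shares in percentage points they were -0.08249 to 0.3078 (Fos), -1.569 to 1.336 (Fosl1), -0.7788 to 2.164 (Fosl2) and -0.5942 to 0.7043 (Junb) with G-MDSC supernatant against TGF-β1, -0.1863 to 0.204 for Fos with M-MDSC supernatant and -0.3017 to 0.03406 for Fos between the supernatants.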
